A study of Mus musculus with 11 samples.

Results

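The genes described here are 10 interferon-γ (IFN-γ)-induced GTPases in renal CD4+ T cells of mice, 8 guanylate-binding proteins (Gbp2 to Gbp9) and the immunity-related GTPases Igtp and Irgm1. They were taken by symbol from a table of 35814 gene symbols, and all 10 symbols were found. They had been chosen from their values in these same libraries, so their levels and fold changes are a description. Where calls of a test across all genes are counted for them, the count stands beside the share of all genes called, and nothing is read from it. Bulk RNA sequencing was performed in 11 libraries, 1 per mouse, of CD4+ T cells enriched with magnetic beads and sorted by FACS from kidneys on day 2 after ischemia-reperfusion injury (IRI) with 45 min of ischemia. All mice were male, 8 to 12 weeks old, on the C57BL/6 background and carried a Cre recombinase under the CD4 promoter, which is active in all T cells that pass through a CD4 stage. The 3 CD4cre mice served as controls and are labelled WT although they carry the Cre. The 5 CD4IKK1 mice are labelled as IKK1 knockout and additionally carry a floxed Chuk gene, which encodes the NFκB kinase IKK1. The 3 CD4NIK mice are labelled as NIK knockout and carry a floxed Map3k14 gene, which encodes NIK, the kinase upstream of IKK1 in the non-canonical NFκB pathway.

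Guanylate-binding proteins (GBPs) and immunity-related GTPases (IRGs) are large GTPases that IFN-γ switches on in most cell types. IFN-γ binds the receptor made of IFNGR1 and IFNGR2, the kinases JAK1 and JAK2 pass the signal on, and it reaches target genes through gamma-activated sites (GAS), while IRF1 and other factors bind interferon-stimulated response elements (ISRE). In macrophages and epithelial cells GBPs and effector IRGs attack the membranes of vacuoles that hold intracellular pathogens, whereas Irgm1 and Igtp (also called Irgm3) are regulatory IRGs that keep the effectors off the cell's own membranes. In CD4+ T cells Irgm1 is known to protect expanding cells from IFN-γ-driven death.

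The GTPase genes lie in 3 groups in the mouse genome, given here on GRCm39 with GENCODE annotation, and all 10 are annotated as protein-coding. On chromosome 3, Gbp5 (chr3:142199739-142228105), Gbp7 (chr3:142236044-142255910), Gbp3 (chr3:142265731-142278979) and Gbp2 (chr3:142326349-142343779) follow each other on the plus strand. On chromosome 5, Gbp8 (chr5:105162016-105287452), Gbp9 (chr5:105224332-105287452), Gbp4 (chr5:105263633-105287609) and Gbp6 (chr5:105418568-105443751) lie on the minus strand, and the annotated spans of Gbp4, Gbp8 and Gbp9 overlap. On chromosome 11, Irgm1 (chr11:48752795-48763164) is on the minus strand and Igtp (chr11:58089840-58098417) on the plus strand.

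Promoter sequences were matched for 6 of the 10 genes in RefSeq (GRCm38 table), namely Gbp2, Gbp3, Gbp5, Gbp7, Igtp and Irgm1, and each was found once in GRCm39. The 110 bases before the RefSeq start are shown 5′ to 3′ on the strand of the gene, because most of the interferon motifs lie there. These RefSeq starts differ from the ends of the GENCODE spans given above. The windows lie partly (Gbp2, Gbp3 and Gbp7) or wholly (Gbp5, Igtp and Irgm1) inside those spans. Capitals mark the GAS letters TTCNNNGAA and the ISRE letters GAAANNGAAA on either strand, where N is any base, and adjoining motifs can overlap.
Gbp2 (chr3:142326314-142326423): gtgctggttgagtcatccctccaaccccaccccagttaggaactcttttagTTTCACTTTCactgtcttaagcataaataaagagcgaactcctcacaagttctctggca
Gbp3 (chr3:142265695-142265804): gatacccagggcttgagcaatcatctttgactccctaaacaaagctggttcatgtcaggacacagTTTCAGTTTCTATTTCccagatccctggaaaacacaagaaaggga
Gbp5 (chr3:142202585-142202694): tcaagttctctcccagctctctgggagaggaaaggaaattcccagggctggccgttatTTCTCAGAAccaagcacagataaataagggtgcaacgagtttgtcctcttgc
Gbp7 (chr3:142235987-142236096): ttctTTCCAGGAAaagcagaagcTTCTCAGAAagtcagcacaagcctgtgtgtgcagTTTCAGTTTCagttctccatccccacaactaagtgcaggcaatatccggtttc
Igtp (chr11:58090272-58090381): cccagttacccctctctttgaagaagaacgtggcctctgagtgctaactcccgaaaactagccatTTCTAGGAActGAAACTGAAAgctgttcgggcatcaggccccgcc
Irgm1 (chr11:48762248-48762357): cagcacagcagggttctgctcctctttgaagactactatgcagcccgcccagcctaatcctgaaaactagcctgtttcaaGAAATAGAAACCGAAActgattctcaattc

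Over the whole 250 bases upstream of the RefSeq start, all 6 genes held an ISRE motif, and Gbp5, Gbp7 and Igtp also held a GAS motif. Gbp3 has a second RefSeq start, whose window held neither, so that the motifs were found in 6 (ISRE) and 3 (GAS) of 7 promoters. Among all 32851 promoters of the same length, 2.98% held the ISRE letters, 7.02% the GAS letters and 0.332% both. In Igtp the GAS motif at bases -45 to -37 and the ISRE motif at bases -34 to -25 stood beside each other, counted back from the start. In Irgm1 a pair of overlapping ISRE motifs reached from base -30 to base -15, and in Gbp3 such a pair reached from -45 to -30. Gbp7 had GAS motifs at bases -106 to -98 and -87 to -79, the second with the same letters as the GAS motif of Gbp5 at bases -52 to -44. Gbp5 was the only one of these 6 genes without an ISRE motif within 110 bases, and its ISRE motif lay at bases -165 to -156 and a further GAS motif at bases -245 to -237. A motif match is a description of the letters and not evidence that a factor bound there.

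**Figure D1:**
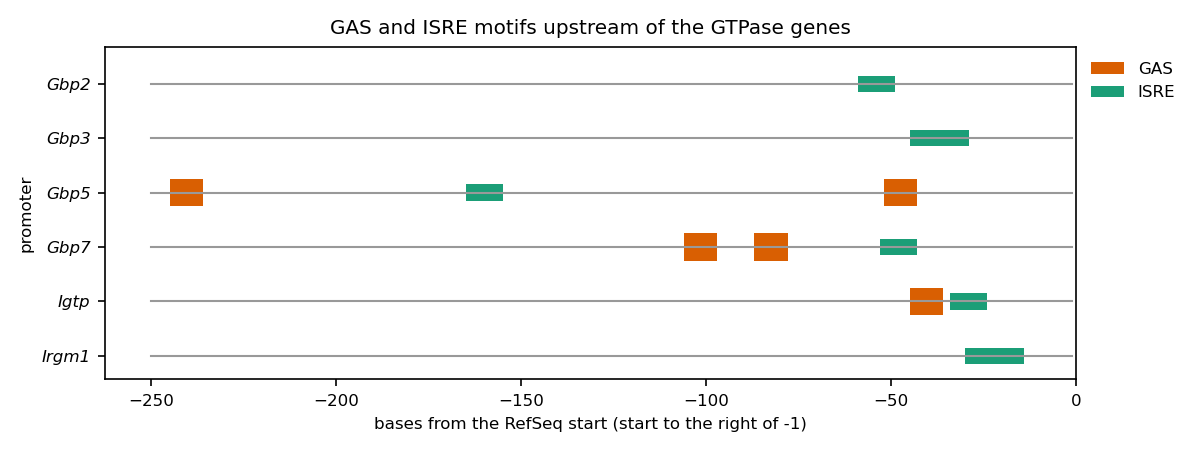
GAS (orange) and ISRE (green) motifs in the 250 bases upstream of the RefSeq start of 6 GTPase genes, with the distance from the start in bases on the x axis. Most motifs sit within 110 bases of the start, and Gbp5 alone has motifs farther upstream than that.

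The libraries held between 15751632 and 25737046 estimated counts, and 3 counts were worth 0.115 to 0.211 CPM, the unit of counts after scaling for library size. The kit added no molecular identifiers, so amplified copies of a molecule are counted again, and this floor covers counting error only. T cell transcripts differed strongly between the groups. The T cell receptor constant regions (Trac, Trbc1 and Trbc2) summed to 12558 to 35820 counts in CD4cre, to 60124 to 111648 counts in CD4NIK and to 5277 to 11413 counts in CD4IKK1 replicates 3, 4 and 5. CD4IKK1 replicates 1 and 2 had only 41 and 868 such counts, and Cd4 itself was at 2.05 and 7.23 CPM in them, so that both stand apart from their label. For the GTPases, Ifng and the pathway lists, values or counts of calls without these 2 libraries are given beside the comparisons that use them. The scaling to T cell markers described below is an exception, as it was not run without them. Neuronal transcripts (9 markers) summed to 5255 to 6192 CPM in CD4IKK1, 4048 to 4787 CPM in CD4cre and 1309 to 2886 CPM in CD4NIK. In bulk samples fewer T cells and less RNA per T cell cannot be told apart. The targeted genes did not separate the groups as labelled. Chuk was at 15.2 to 26.4 CPM in the libraries labelled CD4IKK1 and 16.3 to 33.2 CPM in CD4cre, and Map3k14 at 12.9 to 30.8 CPM in the libraries labelled CD4NIK and 14.7 to 19.6 CPM in CD4cre. Map3k14 was lowest in the libraries labelled CD4IKK1, with 1.86 to 9.23 CPM, below every library of both other groups. These counts are summed over all exons, so they do not examine the deleted ones, and all directions below are between libraries as labelled.

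Together the GTPases were highest in the CD4NIK libraries and lowest in the CD4IKK1 libraries on the TMM scale. The summed level of the 10 genes was 179, 116 and 77.8 CPM in CD4cre replicates 1 to 3, 27.4, 16.7, 54.3, 45.2 and 57.9 CPM in CD4IKK1 replicates 1 to 5, and 861, 674 and 921 CPM in CD4NIK replicates 1 to 3. The 3 groups did not overlap. The mean was 124 ± 51.3 CPM (SD, n = 3) in CD4cre, 40.3 ± 17.7 CPM (SD, n = 5) in CD4IKK1 and 819 ± 129 CPM (SD, n = 3) in CD4NIK. This order is that of the T cell receptor counts per group. Scaling the libraries to T cell markers in place of TMM changes the scale of whole libraries and so of all their genes. The median of all genes tested became 4.29 between CD4IKK1 and CD4cre, -1.997 between CD4NIK and CD4cre and 6.27 between CD4IKK1 and CD4NIK on the log2 scale, so values on that scale are read only against these medians.

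**Figure D2:**
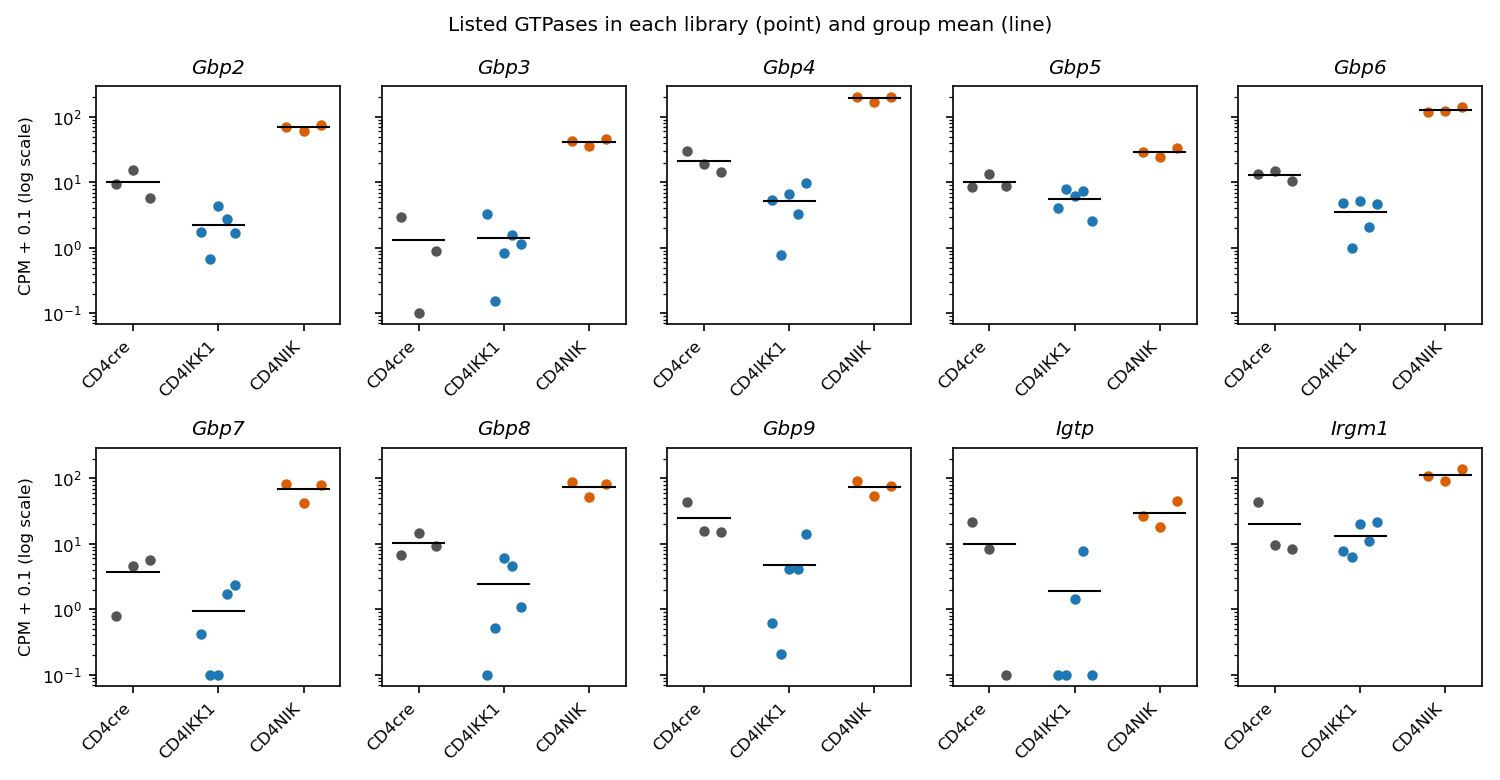
CPM plus 0.1 on a log axis for each of the 10 GTPases in the 3 CD4cre, 5 CD4IKK1 and 3 CD4NIK libraries (points) with the group mean (line). For 9 genes all CD4NIK points lie above all others, and for Igtp 1 CD4cre library lies within the CD4NIK range, all on the scale of TMM-normalised CPM.

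Among the GBPs of chromosome 3, Gbp2 and Gbp5 carry a CaaX box through which the proteins receive a lipid anchor. Gbp2 was at 9.39, 15.5 and 5.66 CPM in CD4cre, at 1.66, 0.576, 4.20, 2.68 and 1.57 CPM in CD4IKK1, and at 70.3, 61.5 and 76.3 CPM in CD4NIK. Its 3 groups did not overlap. Gbp5, which has been linked to inflammasome assembly in macrophages, was at 8.28, 13.3 and 8.76 CPM in CD4cre, at 4.03, 7.70, 6.18, 7.35 and 2.43 CPM in CD4IKK1, and at 29.1, 24.2 and 33.2 CPM in CD4NIK. Here the groups were also ordered without overlap, yet the highest CD4IKK1 library came within 1 CPM of the lowest CD4cre library. Gbp3 was at 2.81, 0 and 0.801 CPM in CD4cre, at 3.14, 0.0524, 0.737, 1.49 and 1.03 CPM in CD4IKK1, and at 43.1, 35.6 and 45.1 CPM in CD4NIK. CD4cre and CD4IKK1 libraries were thus low alike and overlapped, and only CD4NIK libraries stood apart. Gbp7 was at 0.693, 4.42 and 5.56 CPM in CD4cre, at 0.320, 0, 0, 1.64 and 2.25 CPM in CD4IKK1, and at 83.2, 42.4 and 79.6 CPM in CD4NIK. It overlapped between CD4cre and CD4IKK1 through CD4cre replicate 1.

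The GBPs of chromosome 5 made up the larger part of the summed CPM in CD4NIK, with 54.4% to 59.6% in its 3 libraries. Gbp4 had the highest CPM of the 10 genes there, with 200 (199.8), 172 and 203 CPM, compared with 30.3, 19.2 and 14.1 CPM in CD4cre and 5.31, 0.681, 6.47, 3.18 and 9.67 CPM in CD4IKK1. Gbp6 followed with 120.4, 123 and 140.0 CPM in CD4NIK, 13.5, 14.97 and 10.3 CPM in CD4cre and 4.80, 0.891, 5.11, 1.99 and 4.59 CPM in CD4IKK1. Both genes separated all 3 groups without overlap. Their CD4NIK libraries also agreed most closely, with a coefficient of variation of 8.99% for Gbp4 and 8.39% for Gbp6, compared with up to 46.2% for Igtp. Gbp8 was at 6.62, 14.6 and 9.11 CPM in CD4cre, at 0, 0.419, 5.90, 4.42 and 0.989 CPM in CD4IKK1, and at 86.8, 52.7 and 81.1 CPM in CD4NIK. Gbp9 was at 42.8, 15.8 and 15.2 CPM in CD4cre, at 0.512, 0.105, 4.08, 4.07 and 14.2 CPM in CD4IKK1, and at 91.5, 54.6 and 77.6 CPM in CD4NIK. Again neither gene overlapped between any of the groups, although CD4IKK1 replicate 5 reached 14.2 CPM of Gbp9, just below the lowest CD4cre library.

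Both regulatory IRGs overlapped between CD4cre and CD4IKK1 libraries. Irgm1 was at 43.3, 9.43 and 8.31 CPM in CD4cre, at 7.62, 6.24, 20.3, 10.8 and 21.1 CPM in CD4IKK1, and at 110 (109.9), 91.2 and 141 CPM in CD4NIK. In 3 of 5 CD4IKK1 libraries Irgm1 was above the lower 2 of the CD4cre libraries, and CD4cre replicate 1 alone made the CD4cre mean the higher one. Igtp was at 21.4, 8.21 and 0 CPM in CD4cre, at 0, 0, 1.36, 7.59 and 0 CPM in CD4IKK1, and at 26.6, 17.7 and 44.6 CPM in CD4NIK. It was listed at 0 in 1 CD4cre library and in 3 CD4IKK1 libraries, and it was the only member for which CD4cre and CD4NIK libraries overlapped.

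Per length, Irgm1 and not Gbp4 was the highest member in CD4NIK. Divided by the length of the canonical transcript, Irgm1 was at 54.6 ± 12.04 CPM per kb (SD, n = 3), Gbp8 at a mean of 45.9, Gbp4 at 42.2, Gbp6 at 27.9, Gbp2 at 27.3, Gbp3 at 14.998, Gbp9 at 13.2, Igtp at 13.0, Gbp7 at 12.1 and Gbp5 at 9.07 CPM per kb. In this order only Gbp4 and Gbp6, and Gbp2 and Gbp3, were neighbours whose CD4NIK libraries did not overlap. The other 7 pairs of neighbours did not differ beyond their spread.

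Some of these levels depend on how reads were divided between similar genes. Of the stretches of 31 bases in the canonical transcript of Gbp6, 91.5% also occur in another gene, mostly in the predicted gene Gm43302. The share was 45.4% for Gbp8 (28.1% with Gbp11), 23.6% for Gbp4 (11.6% with Gbp6), 21.5% for Gbp9 (8.40% with Gbp8), 17.0% for Gbp7, 16.5% for Igtp (Irgm2) and 12.8% for Irgm1. Gbp2, Gbp3 and Gbp5 had the smallest shares, with 4.86%, 6.87% and 8.69%. Values more than 0.001 away from a whole number, a sign of divided reads, occurred in all 11 libraries for Gbp4, Gbp5, Gbp6 and Irgm1, and in 1 library for Gbp2. The level of Gbp6, and the exact zeros of Igtp, Gbp7 and Gbp8, are therefore uncertain, and part of the counts of Gbp4, Gbp5 and Irgm1 was divided as well, in all 11 libraries.

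CD4NIK libraries were compared with CD4cre libraries to ask how the deletion of NIK relates to the interferon response of renal CD4+ T cells. On the TMM scale all 10 GTPases had a higher fitted level in CD4NIK, with a median log2 fold change of 2.80 (all genes tested, -0.02). Scaled to T cell markers the member median was 0.84, above the -1.997 of all genes, with Gbp5 at -0.49 and Gbp9 at -0.21. The largest differences were those of Gbp3, at 5.05 ± 1.02 (log2 fold change ± standard error), and Gbp7, at 4.25 ± 0.69, both of which were under 1 CPM in at least 1 CD4cre library. They were followed by Gbp6 with 3.29 ± 0.23, Gbp4 with 3.16 ± 0.30, Gbp8 with 2.84 ± 0.37, Gbp2 with 2.75 ± 0.37 and Irgm1 with 2.47 ± 0.61. Gbp9 with 1.59 ± 0.43, Igtp with 1.57 ± 1.21 and Gbp5 with 1.49 ± 0.32 differed least. Without CD4cre replicate 1, Gbp3 was at 6.65, Irgm1 at 3.66 and Igtp at 2.83, while the lowest values with 1 library left out were 4.50, 2.12 and 1.01, so that single libraries moved these values. In edgeR's quasi-likelihood test across all genes, 9 of the 10 were called (FDR under 0.05 and over 2-fold), and Igtp was not. In this comparison 10.4% of all 15209 genes tested were called higher and 6.99% lower. In every library without overlap 9 of the 10 were higher, compared with 23.0% of all genes tested (22.1% were lower without overlap). As the genes were chosen from this contrast, nothing is read from these counts. The number of members called fell to 5 without CD4cre replicate 3 or without CD4NIK replicate 3, and to 6 without CD4NIK replicate 2, where Gbp3, Gbp9 and Irgm1 were among those lost.

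CD4IKK1 libraries were compared with the same 3 CD4cre libraries, so both comparisons share their controls. The question was how the deletion of IKK1 relates to the effector program of these cells. On the TMM scale the fitted levels of 9 of the 10 GTPases were lower in CD4IKK1, with a median log2 fold change of -2.06 (all genes tested, 0.02). Scaled to T cell markers, with CD4IKK1 replicates 1 and 2 included, the member median was 1.92, below the 4.29 of all genes. Igtp had a log2 fold change of -2.46 ± 2.12, Gbp9 of -2.41 ± 1.13, Gbp2 of -2.25 ± 0.63, Gbp8 of -2.11 ± 1.10, Gbp4 of -2.07 ± 0.63, Gbp7 of -2.06 ± 1.40 and Gbp6 of -1.89 ± 0.55. Gbp5 had -0.87 ± 0.46, Irgm1 -0.62 ± 0.60 and Gbp3 0.09 ± 1.40. Gbp2, Gbp4 and Gbp6 were thus the members with the largest difference relative to their error. None of the 10 was called by edgeR, where 0.00% of all 15653 genes tested were called in either direction and the smallest FDR was 0.0543. At an unadjusted p under 0.05 there were 2592 genes, among them 3 members, and DESeq2 called 511 genes lower and 41 higher, among them Gbp2, Gbp4 and Gbp6, which were lower. In every library without overlap 6 members were lower (Gbp2, Gbp4, Gbp5, Gbp6, Gbp8 and Gbp9), compared with 8.44% of all genes tested (5.99% were higher without overlap). Nothing is read from these counts either. Without CD4IKK1 replicates 1 and 2 the median was -1.59 and none of the 10 was called. Single libraries moved several of these values. Without CD4cre replicate 1 Irgm1 changed its sign to 0.58, and Gbp3 was at 1.68, compared with -0.54 without CD4IKK1 replicate 1 and -0.15 without CD4IKK1 replicates 1 and 2. Igtp ran from -4.85 (without CD4IKK1 replicate 4) to -1.19 (without CD4cre replicate 1), and Gbp9 from -3.48 (without CD4IKK1 replicate 5) to -1.74 (without CD4cre replicate 1).

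**Figure D3:**
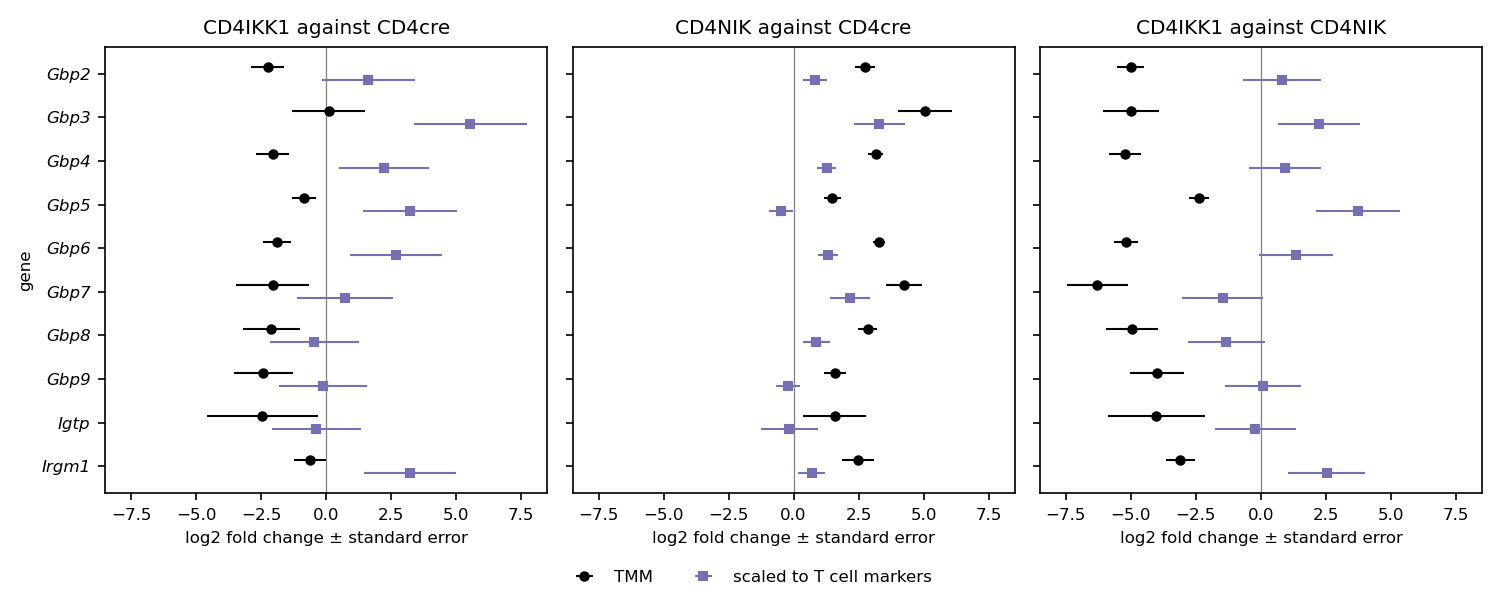
Log2 fold change ± standard error of the 10 GTPases in the 3 comparisons, on the TMM scale (black circles) and with libraries scaled to T cell markers (violet squares). Between CD4IKK1 and CD4NIK all 10 values are negative on the TMM scale, from -6.29 for Gbp7 to -2.37 for Gbp5, and 7 of them are positive after scaling to T cell markers, which moves the median of all genes to 6.27.

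CD4IKK1 libraries were also compared with CD4NIK libraries. For 9 of the 10 GTPases the fitted difference was larger here than in the other comparisons, and for Gbp3 it was close to that between CD4NIK and CD4cre. On the TMM scale the log2 fold change was -6.29 ± 1.18 for Gbp7, -5.23 ± 0.61 for Gbp4, -5.19 ± 0.45 for Gbp6, -5.01 ± 0.51 for Gbp2, -4.99 ± 1.07 for Gbp3 and -4.96 ± 1.01 for Gbp8. Igtp had -4.03 ± 1.86, Gbp9 -4.00 ± 1.04, Irgm1 -3.10 ± 0.57 and Gbp5 -2.37 ± 0.38. With 1 library left out Igtp ran from -6.44 to -3.61 and Gbp9 from -5.08 to -3.69, and without CD4IKK1 replicate 4 all 10 were called lower. The median was -4.98 (all genes tested, 0.06), and -4.45 without CD4IKK1 replicates 1 and 2. Of the 10 genes 9 were called lower, all but Igtp, with or without these libraries, where 18.5% of all 16546 genes tested were called lower and 14.8% higher. All 10 were lower in every CD4IKK1 library without overlap, compared with 24.6% of all genes tested (20.5% were higher without overlap). Since the genes were chosen with these differences known, nothing is read from the counts. With libraries scaled to T cell markers, CD4IKK1 replicates 1 and 2 included, the member median was 0.87, below the 6.27 of all genes. On that scale 14015 of all genes, Gbp5 among them, were called higher.

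Within the summed CPM of the 10 genes, Gbp5 and Irgm1 took a larger share in CD4IKK1 libraries. These 2 genes were singled out after their values were seen. Together they made up 42.5%, 83.6%, 48.7%, 40.2% and 40.7% of the summed CPM in CD4IKK1, 28.8%, 19.7% and 21.9% in CD4cre, and 16.1%, 17.1% and 18.9% in CD4NIK. The CD4IKK1 libraries did not overlap with the others, which is a description of genes chosen for it. Both genes had divided counts in every library, and the effect of this division on the shares was not tested. A share does not depend on the scaling between libraries. Irgm1 alone was at 32.6 ± 6.32% (SD, n = 5) in CD4IKK1, 14.3 ± 8.61% (SD, n = 3) in CD4cre and 13.9 ± 1.30% (SD, n = 3) in CD4NIK. Gbp5 was at 18.6 ± 16.2% in CD4IKK1, where replicate 2 with 46.2% raised the mean, at 9.13 ± 3.92% in CD4cre and at 3.53 ± 0.12% in CD4NIK. For each of these 2 genes alone the CD4IKK1 and CD4cre libraries overlapped. The share of Gbp4 was 11.8 ± 6.40% in CD4IKK1, 17.2 ± 0.79% in CD4cre and 23.6 ± 1.75% in CD4NIK, and the CD4IKK1 range of 4.09% to 19.4% covered that of CD4cre. The 4 genes of chromosome 5 made up 52.1% to 62.6% in CD4cre and 12.6% to 50.9% in CD4IKK1, and the ranges of both groups did not overlap.

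**Figure D4:**
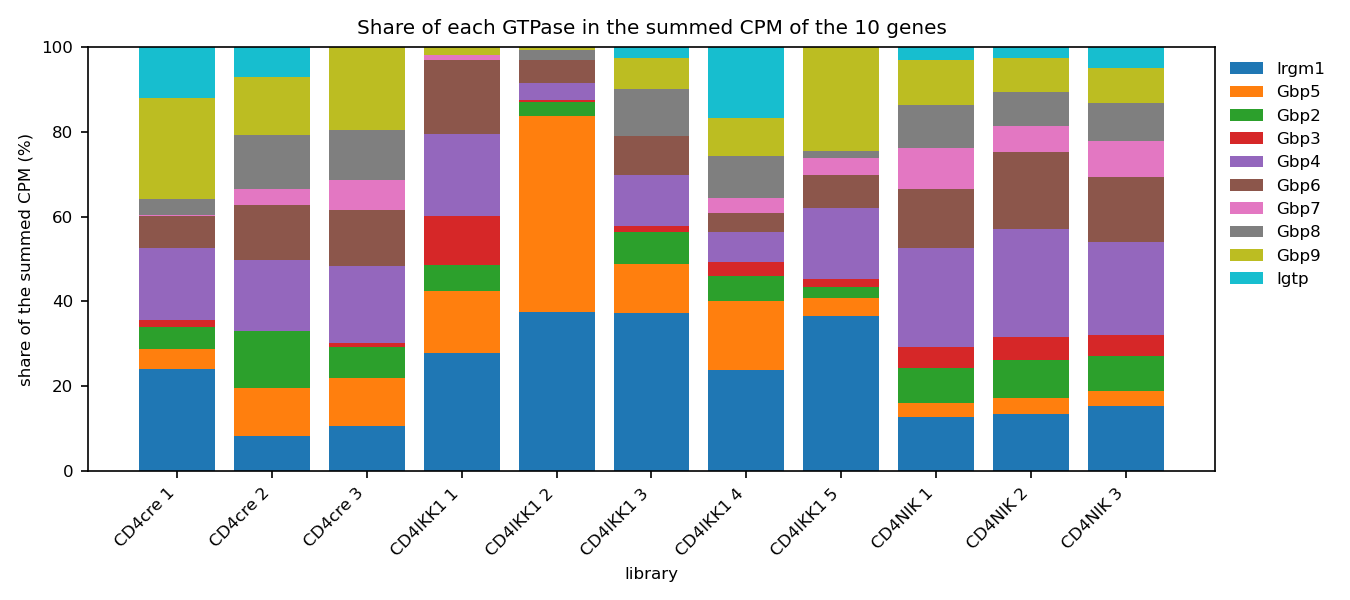
Share of each GTPase in the summed CPM of the 10 genes (y axis, %) in each of the 11 libraries, stacked to 100%. Irgm1 and Gbp5 (the lowest segments) together take 40.2% to 83.6% in CD4IKK1 libraries and at most 28.8% in the others.

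Ifng, which encodes the inducing cytokine, was at 364, 135 and 109.6 CPM in CD4cre, at 0, 1.99, 32.4, 35.5 and 53.1 CPM in CD4IKK1, and at 887, 768 and 1067 CPM in CD4NIK. The order of the groups was the same as for the GTPases, and CD4cre replicate 1 was the highest CD4cre library in both. As Ifng belongs to the values by which the GTPases were chosen, its differences are a description too. The log2 fold change was 2.15 ± 0.43 in CD4NIK against CD4cre, from 1.88 (without CD4cre replicate 3) to 2.87 (without CD4cre replicate 1) when 1 library was left out, and -5.20 ± 1.28 in CD4IKK1 against CD4NIK. Between CD4IKK1 and CD4cre it was -3.04 ± 1.40. Without CD4IKK1 replicates 1 and 2 the values of CD4IKK1 were -4.48 ± 0.46 against CD4NIK and -2.33 ± 0.49 against CD4cre.

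The GTPase levels were also set against Ifng within each library, again as a description. The summed GTPase CPM per Ifng CPM was 0.493, 0.857 and 0.7099 in CD4cre, 0.970, 0.878 and 0.863 in CD4NIK, and 8.37, 1.68, 1.27 and 1.09 in CD4IKK1 replicates 2 to 5, while replicate 1 had no Ifng count. The 4 CD4IKK1 ratios were above those of the other groups. For the 8 genes other than Gbp5 and Irgm1 the ratio was 1.37, 0.860, 0.761 and 0.647 in CD4IKK1 replicates 2 to 5, 0.351, 0.688 and 0.554 in CD4cre, and 0.814, 0.728 and 0.700 in CD4NIK, so that the CD4IKK1 ratios overlapped with both other groups. Over the 11 libraries Pearson's r between log2 CPM of a member and of Ifng ran from 0.48 for Gbp3 to 0.94 for Gbp8, with a median of 0.75, and without CD4IKK1 replicates 1 and 2 from 0.67 for Igtp to 0.97 for Gbp4, with a median of 0.85. These values mainly follow the separate groups, whose libraries also differ in T cell transcripts. For deviations from the group means the values with Ifng ran from -0.04 for Gbp5 to 0.85 for Gbp8, with a median of 0.35. Over the 11 libraries the median r of the members was 0.81 with the mean of the T cell markers and 0.74 with that of the myeloid markers. Members also correlated with each other to different degrees, with r from 0.55 to 0.99 in 45 pairs, and from -0.65 to 0.93 for deviations from the group means.

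Per T cell receptor count the groups were much closer to each other when CD4IKK1 replicates 1 and 2 were left aside. For every 100 counts of Trac, Trbc1 and Trbc2 there were 13.0, 10.5 and 12.4 GTPase counts in CD4cre, 25.7, 12.3 and 14.5 in CD4NIK, and 8.40, 17.2 and 22.8 in CD4IKK1 replicates 3, 4 and 5. The 3 groups overlapped on this scale. CD4IKK1 replicates 1 and 2 had 1044 and 36.6, which rest on the 41 and 868 receptor counts given above. Ifng per 100 receptor counts was 26.4, 12.2 and 17.4 in CD4cre, 26.4, 14.0 and 16.8 in CD4NIK, and 0, 4.38, 5.00, 13.6 and 20.9 in CD4IKK1. Transcripts of other cells were found although the cells had been enriched for CD4 with magnetic beads and then sorted by FACS. Myeloid markers (14 genes) summed to 560 to 2292 CPM in CD4cre, 140 (139.6) to 317 CPM in CD4IKK1 and 1084 to 1444 CPM in CD4NIK, so they were lowest in CD4IKK1 and did not separate CD4cre from CD4NIK. CD8 T and NK cell markers (9 genes) summed to 23.9 to 55.8, 0.960 to 15.4 and 175 to 219 CPM in CD4cre, CD4IKK1 and CD4NIK. B cell markers (4 genes) were at 0.546 to 24.3 CPM, endothelial markers (6 genes) at 58.4 to 106 CPM and tubule markers (9 genes) at 4.87 to 104 CPM over all libraries, and no marker of any list was at 0 in all libraries. The part of these cells in the GTPase levels was not tested.

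**Figure D5:**
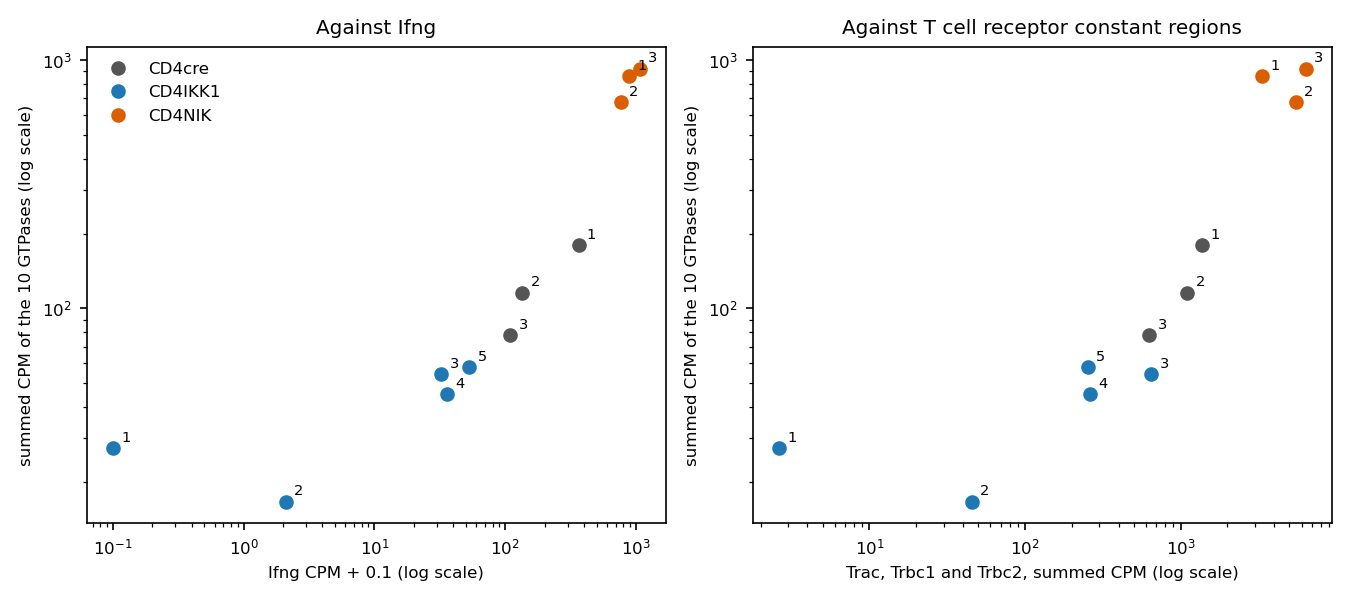
Summed CPM of the 10 GTPases (y axis) against Ifng CPM plus 0.1 (left) and against the summed CPM of Trac, Trbc1 and Trbc2 (right) in the 11 libraries, on log axes, with the replicate number beside each point. CD4IKK1 replicates 1 and 2 have few receptor transcripts (41 and 868 counts) while GTPase transcripts are still found at 27.4 and 16.7 CPM.

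The genes between IFN-γ and the GTPases were then examined, which were not among the chosen members. The list of this axis also holds Ifng itself, whose values belong to the choice. The axis counts and the totals over all pathway lists below cover it as well. The directions that follow are those of the TMM scale. Scaling to T cell markers, which changes the scale of all genes, gave 145 called higher and 9767 lower in CD4NIK than in CD4cre, of 15209 genes tested. With CD4IKK1 replicates 1 and 2 included, it gave 14015 higher and 68 lower in CD4IKK1 than in CD4NIK, of 16546. Of the pathway genes below, 11 were then higher and 25 lower in the first comparison, and 39 higher and 3 lower in the second. Without CD4IKK1 replicates 1 and 2, 72 pathway genes were lower and 3 higher in CD4IKK1 than in CD4NIK. Over all 16190 genes tested there, 2770 were lower and 2111 higher. Compared with CD4cre 2 pathway genes were lower and none higher in CD4IKK1 (Icam1 and Tap2, edgeR FDR 0.0342 and 0.0473), beside 36 lower and 0 higher of all 15091. These counts over all genes also stand behind the list counts without those 2 libraries. Of 19 tested genes of the IFN-γ signalling axis 9 were called higher in CD4NIK than in CD4cre and none lower, where 10.4% of all genes tested were called higher and 6.99% lower. These 2 percentages also stand behind the other list counts of this comparison. Over all pathway lists 59 genes were called higher and 3 lower here, compared with 35 to 63 higher and 0 to 4 lower when 1 library was left out (35 without CD4NIK replicate 3, 38 without CD4NIK replicate 2), and 22 higher with all 11 libraries in the fit. Irf9, an interferon regulatory factor that acts at the ISRE, rose with a log2 fold change of 2.96 ± 0.32 (edgeR FDR 0.00255), Nlrc5, the activator of MHC class I genes, with 2.38 ± 0.32 (FDR 0.00468), and Irf2, which binds the same elements as IRF1, with 1.87 ± 0.26 (FDR 0.0049). Of the receptor chains, Ifngr1 rose with 1.63 ± 0.31 (edgeR FDR 0.0141), while Ifngr2 was at 175 to 190 (189.8) CPM in CD4cre and 101 to 128 CPM in CD4NIK, a log2 fold change of -0.65 ± 0.18 that stayed under 2-fold (edgeR FDR 0.0381). Jak1 rose with 1.59 ± 0.39 (edgeR FDR 0.0272). Irf1 had 2.30 ± 0.75 and did not pass (edgeR FDR 0.0587), with 25.4, 138 and 57.2 CPM in CD4NIK against 30.3, 7.49 and 6.31 CPM in CD4cre. Jak2 was listed at 0 in 5 of 11 libraries and had up to 18.0 CPM in the others, without an order by group.

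Of 20 axis genes, Ifng among them, 14 were called lower in CD4IKK1 than in CD4NIK and none higher. Over all genes tested 18.5% were called lower and 14.8% higher, which also applies to the list counts of this comparison given further on. The log2 fold change was -2.54 for Stat2 (edgeR FDR 0.000276), -2.04 for Irf2 (FDR 9.2e-05), -2.71 for Jak1 (FDR 0.000134), -4.12 for Ifngr1 (FDR 0.000455) and -4.40 for Irf1 (FDR 0.00158). Of 3 axis genes with a positive fitted value (Ifngr2, Jak2 and Ptpn11, the last named after its values were seen), Ifngr2 had 162 to 213 CPM in CD4IKK1 and a log2 fold change of 0.73 ± 0.14, under 2-fold (edgeR FDR 0.00106). The group order of Ifngr2 was that of the neuronal transcripts, 9 of 9 of which were called higher in CD4IKK1 than in CD4NIK and 6 of 9 lower in CD4NIK than in CD4cre, and their part in its values was not tested. Without CD4IKK1 replicates 1 and 2, 15 of 20 axis genes were lower. Jak2 did not pass (log2 fold change 0.23, edgeR FDR 0.936). Between CD4IKK1 and CD4cre none of 19 was called by edgeR. At an unadjusted p of that test under 0.05 there were 8, beside 2592 of all 15653 genes tested. The latter also stands behind such counts of the other lists. The smallest p belonged to Ifngr1 with -2.48 ± 0.62 (edgeR FDR 0.126) and Stat2 with -1.46 ± 0.43 (edgeR FDR 0.154).

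Other interferon-inducible GTPases were listed as well, which lie outside the 10 genes. Of 24 listed genes 20 had a row, and 11 of 18 tested rose in CD4NIK compared with CD4cre, with no gene lower. The effector IRGs Tgtp1 and Tgtp2, near-identical copies whose counts cannot be told apart with certainty, had log2 fold changes of 3.85 ± 0.41 (edgeR FDR 0.00246) and 4.17 ± 0.59 (edgeR FDR 0.00528). Gm12250 (Irgb10), an IRG, rose with 2.63 ± 0.31 (edgeR FDR 0.00317) and the antiviral GTPase Mx1 with 2.67 ± 0.34 (edgeR FDR 0.00405). The predicted GTPase gene 9930111J21Rik2 rose with 1.55 ± 0.22 (edgeR FDR 0.00522). Tgtp2, the other GBPs and Irgm2 are named outside the rule for named genes, after their values were seen. The other GBPs of both clusters were scarce, with Gbp2b at no more than 1.57 CPM and Gbp11 at no more than 0.567 CPM in any library, while Gbp10 reached 8.31, 15.6 and 16.0 CPM in CD4NIK and at most 1.87 CPM elsewhere. Irgm2, the third regulatory IRG, was at 11.4, 2.87 and 5.21 CPM in CD4cre and 23.8, 20.1 and 34.0 CPM in CD4NIK, and it rose with 1.98 ± 0.52 (edgeR FDR 0.0316).

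Between CD4IKK1 and CD4NIK 14 of 19 of these other GTPases were lower and none higher (12 of 18 lower without CD4IKK1 replicates 1 and 2). The log2 fold change was -7.47 for Gm12250 (edgeR FDR 0.000196), -4.20 for 9930111J21Rik1 (FDR 9.2e-05), -2.98 for 9930111J21Rik2 (FDR 0.000519) and -2.95 for Mx1 (FDR 0.000158). In CD4IKK1 compared with CD4cre edgeR called none of 14 (6 at an unadjusted p under 0.05). Gm12250 had the smallest p, with 5.59 to 6.86 CPM in the 3 CD4cre libraries, at most 0.794 CPM in CD4IKK1 and a log2 fold change of -4.84 ± 1.31 (edgeR FDR 0.127). 9930111J21Rik2 followed with -1.42 ± 0.52 (edgeR FDR 0.216). Mx1, in contrast, was at 4.35 to 5.15 CPM in CD4cre and 2.67 to 7.32 CPM in CD4IKK1, and these groups overlapped.

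Of 11 genes that T cells use to make IFN-γ, 6 were called higher in CD4NIK than in CD4cre and none lower. They included Tbx21, which encodes the Th1 factor T-bet (log2 fold change 2.37 ± 0.30, edgeR FDR 0.00401), Stat4 (2.64 ± 0.41, edgeR FDR 0.00752), the interleukin-12 receptor chain Il12rb1 (2.77 ± 0.43, edgeR FDR 0.00752) and the interleukin-27 receptor chain Il27ra (3.68 ± 0.38, edgeR FDR 0.00234). Against CD4NIK, 9 of 11 were lower in CD4IKK1, also without replicates 1 and 2, with Il18r1 (-4.15 ± 0.47, edgeR FDR 8.8e-05), Tbx21 (-4.67 ± 0.71, edgeR FDR 0.000624), Runx3 (-5.02 ± 1.06, edgeR FDR 0.00245) and Il27ra (-4.90 ± 1.05, edgeR FDR 0.0046). None of 10 passed in CD4IKK1 compared with CD4cre (4 at an unadjusted p under 0.05), where Il18r1 had -1.95 ± 0.52 (edgeR FDR 0.123) and Tbx21 -2.28 ± 0.72 (edgeR FDR 0.178). Of the T cell markers 12 of 15 were called higher in CD4NIK than in CD4cre and 14 of 15 lower in CD4IKK1 than in CD4NIK, and their part in these changes was not tested.

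Of 26 other targets of IFN-γ, 16 rose in CD4NIK compared with CD4cre and none fell, led by the peptide-loading gene Tapbp (log2 fold change 3.00 ± 0.24, edgeR FDR 0.0016), Casp1 (3.00 ± 0.25, edgeR FDR 0.0016), the peptide transporter Tap2 (2.43 ± 0.23, edgeR FDR 0.00191) and the adhesion molecule Icam1 (2.02 ± 0.21, edgeR FDR 0.00239). Against CD4NIK, 21 of 27 were lower in CD4IKK1 (18 of 26 without replicates 1 and 2), among them Tapbp (-4.02 ± 0.30, edgeR FDR 1.3e-05), Casp1 (-5.50 ± 0.50, edgeR FDR 4.1e-05), B2m (-4.92 ± 0.46, edgeR FDR 8.0e-05) and Icam1 (-4.42 ± 0.48, edgeR FDR 0.000102). In CD4IKK1 compared with CD4cre none of 23 passed in edgeR (9 at an unadjusted p under 0.05), and Icam1 (-2.38 ± 0.48, edgeR FDR 0.0878) and Casp1 (-2.49 ± 0.55, edgeR FDR 0.0905) had the smallest p. Across all pathway lists DESeq2 called 14 genes lower in that comparison. Genes best known from the response to type I interferon, which also acts through the ISRE, were 14 of 20 higher in CD4NIK than in CD4cre. Irf7 (2.18 ± 0.23, edgeR FDR 0.0023), Oas1a (2.98 ± 0.37, edgeR FDR 0.00401), Ifit3 (2.84 ± 0.39, edgeR FDR 0.00484) and Rtp4 (3.94 ± 0.59, edgeR FDR 0.0068) were among them.

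Of 20 tested type I interferon genes 16 were lower in CD4IKK1 than in CD4NIK (11 without replicates 1 and 2), among them Rtp4 (-4.89 ± 0.65, edgeR FDR 0.000248), Ifit3 (-4.48 ± 0.83, edgeR FDR 0.00147), Zbp1 (-3.77 ± 0.69, edgeR FDR 0.0012) and Ifit2 (-3.62 ± 0.50, edgeR FDR 0.000204). None of 19 passed in edgeR between CD4IKK1 and CD4cre. At an unadjusted p of that test under 0.05 there were 2, beside 2592 of all 15653 genes tested. They were Trim30a with -2.63 ± 0.91 (edgeR FDR 0.202) and Zbp1 with -1.73 ± 0.74 (edgeR FDR 0.281). In that comparison 15 of the 19 had a negative and 4 a positive fitted value, with a median of -1.02.

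GBPs and IRGs act together with the autophagy conjugation machinery and are themselves prenylated in part, and such partner genes were listed as well. In CD4NIK compared with CD4cre 3 of 19 were higher and 3 lower, beside 10.4% and 6.99% of all genes tested. Atg7, which activates the ubiquitin-like ATG proteins (log2 fold change 2.55 ± 0.37, edgeR FDR 0.00592), and the ubiquitin ligases Traf6 (1.22 ± 0.25, edgeR FDR 0.017) and Trim21 (2.47 ± 0.56, edgeR FDR 0.023) rose. Sqstm1, the autophagy receptor p62, fell (-1.64 ± 0.33, edgeR FDR 0.0161), as did Gabarapl1 and Map1lc3a (named to complete the 3, after their values were seen), whose products are conjugated to autophagosome membranes. In CD4IKK1 compared with CD4NIK 7 were lower and 3 higher, also without CD4IKK1 replicates 1 and 2, beside 18.5% and 14.8% of all genes tested, with Atg7 (-4.90 ± 0.69, edgeR FDR 0.000236) and Map1lc3b (-1.63 ± 0.23, edgeR FDR 0.000209) lower and Sqstm1 (1.87 ± 0.27, edgeR FDR 0.000249) and Map1lc3a (1.48 ± 0.20, edgeR FDR 0.00021) higher. The 3 that were higher had the group order of the neuronal transcripts given above, and the part of these transcripts was not tested. In CD4IKK1 compared with CD4cre none of 18 passed in edgeR, with Map1lc3b at -0.76 ± 0.20 (edgeR FDR 0.126) and Gabarapl2 at 0.21 ± 0.07 (edgeR FDR 0.2). At an unadjusted p of that test under 0.05 there were 6, beside 2592 of all 15653 genes tested.

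Outside all lists, the 5 genes whose log2 CPM followed the mean log2 CPM of the 10 GTPases most closely over the 11 libraries were Nmi (Pearson's r 0.992), Akap8 (0.989), Ifi214 (0.988), Mndal (0.987) and Dynlt1f (0.986). These r values are a description, since the libraries fall into separate groups that differ in T cell transcripts. Nmi was at 18.3 to 46.6 CPM in CD4cre, 1.99 to 11.1 CPM in CD4IKK1 and 158 to 262 CPM in CD4NIK. Mndal, a member of the interferon-inducible p200 family like Ifi214, was at 44.0 to 90.5 CPM, 6.13 to 42.7 CPM and 363 to 572 CPM in the same groups. The separation of the groups in these genes follows from how they were picked.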

How the data were processed

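Estimated counts of 11 libraries of sorted renal CD4+ T cells were used, with groups as labelled. The authors trimmed reads with Trimmomatic, quantified them with kallisto (version not given in the sources used here) and deposited a table of estimated counts by symbol, which had not been normalized. The paper names GRCm39 and the labels mm10 as the build. Coordinates were taken from GENCODE on GRCm39, which holds 33508 of 35814 symbols (93.6%). kallisto divides reads among similar transcripts, so that 35.1% to 41.7% of values per library were more than 1e-06 away from a whole number. All 55 pairs of libraries were compared and 0 were identical.

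Estimated counts were rounded, filtered by edgeR's expression filter, normalized by TMM and compared by the robust quasi-likelihood test of edgeR (4.0.16, in R 4.3.3), adjusted by Benjamini-Hochberg over all genes tested. A gene was called at an FDR under 0.05 and over 2-fold. Comparisons with CD4cre used their own groups, and CD4IKK1 against CD4NIK used all 11 libraries. Standard errors were derived from the F statistic. Scripts were tested on simulated data. DESeq2 (1.42.0), other scalings, filters, a replicate block and leaving out libraries were alternatives. Pathway and marker lists were written by hand. Named genes are the 10 members, the IFN-γ receptor and signalling genes, up to 4 called genes per pathway list and comparison by the smallest p (2 where none was called), and the 5 most similar genes, while genes named outside this rule are marked in the text. Marker lists are given by their sums. The members and lists were chosen with earlier results of these data known. Results for 1 gene that the rule names are not reported here.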

Additional observations from a re-analysis of the deposited data

Results flagged for a closer look

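Of 19 measures checked in the 5 CD4IKK1 libraries, 3 had a library far from the others by Dixon's criterion, and chance flags about 1 in 20 groups. Gbp9 was at 14.2 CPM in CD4IKK1 replicate 5, while the other CD4IKK1 libraries had at most 4.08 CPM. Igtp was at 7.59 CPM in CD4IKK1 replicate 4, while the others had at most 1.36 CPM. The GTPase counts per 100 T cell receptor constant-region counts were 1044 in CD4IKK1 replicate 1, which had 41 such receptor counts in all, while the others had at most 36.6.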

How the results depend on the processing

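Counts below are over all genes unless stated. In CD4IKK1 against CD4cre edgeR called 0 genes. DESeq2 called 41 higher and 511 lower, with 14 pathway genes and 3 members lower. All 11 libraries in the fit gave 129 lower (3 pathway genes), RLE 1, upper-quartile factors 1, a filter of any count 48, and a filter of 10 counts in every library 3 higher and 156 lower (2 pathway genes). Removing both CD4IKK1 libraries with few T cell transcripts, an alternative chosen after seeing the data, gave 36 lower (2 pathway genes). Scaling to T cell markers gave 8320 higher and 8 lower, 18 pathway genes and 1 member higher, and a member median of 1.92. Under this scaling, which was not run without those 2 libraries, the medians of all genes were 4.29, -1.997 and 6.27 in the 3 comparisons.

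In CD4NIK against CD4cre (1586 higher, 1063 lower) DESeq2 called 1660 lower, all 11 libraries in the fit 865 higher (22 pathway genes, of 59, and 7 members, without Gbp8 and Gbp9), and upper-quartile factors 1717 lower. Lower calls made up 40.1% of calls with TMM and 55.1% with upper-quartile factors. Scaling to T cell markers gave 145 higher and 9767 lower, 11 pathway genes higher and 25 lower, 4 members higher, a member median of 0.84, -0.49 for Gbp5 and -0.21 for Gbp9. In CD4IKK1 against CD4NIK upper-quartile factors gave 5 pathway genes higher and a share of lower calls of 44.5% (TMM 55.7%), and the 10-count filter left 38 pathway genes and 5 members lower, since fewer genes were tested. Scaling to T cell markers gave 14015 higher and 68 lower, 39 pathway genes higher and 3 lower, 1 member higher and 0 lower, a median of 0.87, and 0.80 for Gbp2, 2.22 for Gbp3, 0.94 for Gbp4, 3.72 for Gbp5, 1.35 for Gbp6, 0.067 for Gbp9 and 2.53 for Irgm1.

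Same-numbered replicates did not pair, with correlations of their deviations from -0.09 to 0.08. The replicate block gave 3 genes lower in CD4IKK1 against CD4cre, 995 higher and 190 lower (1 pathway gene lower) in CD4NIK against CD4cre, and a member median of -5.86 in CD4IKK1 against CD4NIK. The cause of these changes was not tested except where stated.

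Leaving out 1 library gave 0 to 23 genes lower and 0 to 1 higher in CD4IKK1 against CD4cre, 614 to 1703 higher and 60 to 1773 lower in CD4NIK against CD4cre, and 1720 to 2698 higher and 2396 to 3080 lower in CD4IKK1 against CD4NIK. Members called ran from 5 to 9 in CD4NIK against CD4cre and from 9 to 10 in CD4IKK1 against CD4NIK. Pathway genes called in CD4NIK against CD4cre ran from 35 (without CD4NIK replicate 3) to 63 higher and from 0 to 4 lower. They ran from 66 to 77 lower and 3 to 4 higher in CD4IKK1 against CD4NIK. Member medians ran from -2.14 to -1.73, from 2.64 to 3.16 and from -5.10 to -4.69 in the 3 comparisons. Gbp3 and Gbp7 were at or under the floor of 3 counts in 2 libraries each and Igtp in 4. The parts of depth and of divided reads in these low values were not tested.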
